A study of Mus musculus with 6 samples.

Results

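The vacuolar proton pump (V-ATPase) and the genes that serve it were examined in RAW264.7 cells, an established mouse macrophage line that forms osteoclasts when given the cytokine RANKL. Members were taken by gene symbol from the deposited table: all symbols beginning with Atp6v, Atp6ap or Clcn, together with Tcirg1, Ostm1, Slc4a2, Dmxl1, Dmxl2, Rogdi, Wdr7, Tmem9, Vma21, Ccdc115 and Tmem199. This gave 36 genes of 11031 rows. The rule used names only and no measured value, although it was set with earlier results of these data known.

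Poly(A)-selected RNA was sequenced from 6 samples, 3 untreated controls (Ctrl) and 3 stimulated with RANKL, all after 3 days of culture. No genetic change or further agent was described for either group. The labels call them replicate biosamples of a single cell line without saying whether cultures were separate, and the spread behind the p-values may therefore be technical. The 12 columns of counts and FPKM per library carry names that match no sample label and were not used, so neither depth nor the value in each replicate is given.

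Fold changes, p-values and adjusted p-values below are those deposited for the comparison of the 2 conditions. The table does not say which condition is the numerator, so genes are placed on a positive or a negative side. Genes known to be raised by RANKL lay on the positive side, with log2 fold changes of 10.22 for Acp5, 8.80 for Mmp9, 8.78 for Ctsk, 9.72 for Calcr and 2.58 for Nfatc1, and no group is named as higher on that ground. All 5 macrophage markers were listed, 4 on the negative side (Lyz2, Adgre1, Itgam and Csf1r) and Cd68 on the positive side. Among markers of other cells, 0 of 3 T cell, 0 of 3 B cell and 0 of 4 neutrophil genes had a row. Of 5 stromal genes only Pdgfrb had one, at the 0.979 percentile of mean level. In bulk RNA, a change in the number of cells of a type and a change of RNA per cell cannot be told apart.

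The V-ATPase is a rotary enzyme in which the cytosolic V1 sector hydrolyses ATP and the membrane V0 sector carries protons. In an osteoclast it is inserted into the ruffled border and acidifies the space above the bone surface, where mineral dissolves. Charge is balanced by the chloride/proton exchanger ClC-7 with its partner Ostm1, and bicarbonate leaves through the anion exchanger encoded by Slc4a2. Loss of Tcirg1, Clcn7 or Ostm1 causes osteopetrosis, a disease of dense and unresorbed bone, in humans and mice.

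Most of these genes lay on the positive side, and the 5 highest values were those of Atp6v0d2, Slc4a2, Clcn7, Atp6v1b2 and Atp6v1d. In all, 27 of 36 genes (75.0%) were positive at an adjusted p under 0.05, against 39.3% of all rows. On the negative side there were 5 (13.9%), against 38.1% of all rows, and 4 did not pass. Passing the threshold was in itself common, with 88.9% of these genes and 77.5% of all rows. The median log2 fold change was 0.80, compared with 0.00 over all rows.

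Differences of at least 2-fold separated the genes further from the background. A log2 fold change above 1 was reached by 17 of 36 genes (47.2%), against 8.21% of all rows, and a value below -1 by 0 of 36, against 7.1% of all rows. Many of these genes are strongly expressed, so the counts were repeated among the rows at or above the median level. There, 25 of 28 genes (89.3%) passed, against 80.7% of such rows. Of these 28, 24 (85.7%) were positive and 1 (3.57%) negative, against 42.1% and 38.6% of such rows. At this level 16 of 28 (57.1%) were above 1, against 4.77% of such rows, and 0 were below -1, against 4.35%. The 8 genes below the median level held 3 positive, 4 negative and 1 not past the threshold. Over all rows, 39.3% were positive and 38.1% negative.

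**Figure D1:**
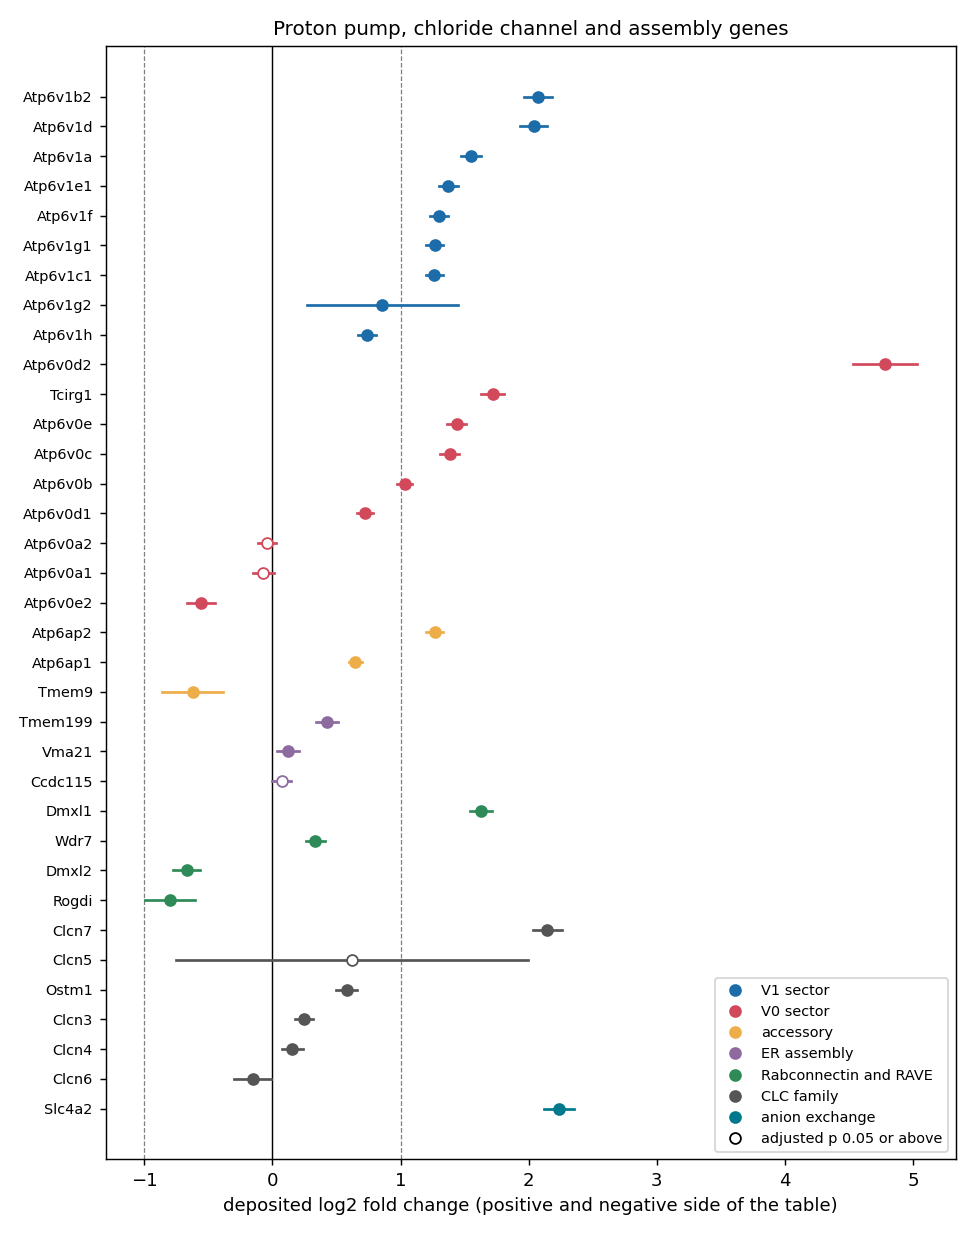
Deposited log2 fold change of 35 of the 36 genes, grouped by role. Lines are 95% intervals from the standard error implied by the p-value (for genes with a p listed as 0, the widest interval that p allows), open circles have an adjusted p of 0.05 or above, and dashed lines mark a 2-fold difference. All 9 V1 genes lie to the right of 0, Atp6v0d2 stands apart at 4.78, and Rogdi is the lowest at -0.80.

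The precision of single values was read from the deposited p-values. If each p is taken as that of a two-sided Wald test, as is usual for DESeq2, it implies a standard error (SE) of the log2 fold change, with a median of 0.04 over the 36 genes. For 14 genes the p-value is listed as 0, below the smallest recorded value of 7.48e-308, and the SE given for them is an upper limit. The type of test was not given in the sources used here, so these errors rest on that reading.

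The start regions of pump genes are known to carry E-boxes of the CLEAR type, bound by the MiT/TFE factors that drive lysosomal genes. RefSeq windows (GRCm38.p6) from 250 bases before to 50 bases after the gene start were matched for 27 of the 36 genes. The 8-base palindrome TCACGTGA, searched on both strands, occurred in 6 of these 27 genes (22.2%), against 1.12% of all 27025 genes with a window and 2.33% of the 8635 such genes in the table. A gene counted if any of its windows held a match, and some genes have several windows. Counted by window, 6 of the 40 windows of these 27 genes held it, against 0.974% of all 32851 windows. The windows around these 6 matches are shown because they belong to pump, exchanger and assembly genes alike. Each reads 5′ to 3′ along the gene, with the palindrome in capitals.
Clcn7: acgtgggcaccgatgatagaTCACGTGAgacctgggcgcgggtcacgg
Atp6v0e: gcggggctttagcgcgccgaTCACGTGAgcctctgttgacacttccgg
Atp6v1a: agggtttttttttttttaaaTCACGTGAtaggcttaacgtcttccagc
Atp6v0d1: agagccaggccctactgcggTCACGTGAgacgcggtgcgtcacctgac
Clcn6: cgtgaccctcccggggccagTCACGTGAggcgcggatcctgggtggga
Vma21: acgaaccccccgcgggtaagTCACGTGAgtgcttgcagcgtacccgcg

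These stretches lie at chr17:25133377-25133424 (Clcn7, plus strand), chr17:26676378-26676425 (Atp6v0e, plus), chr16:44139364-44139411 (Atp6v1a, minus), chr8:105566041-105566088 (Atp6v0d1, minus), chr4:148038812-148038859 (Clcn6, minus) and chrX:71816685-71816732 (Vma21, plus). In Clcn7 and Atp6v0e the palindrome begins 6 and 2 bases after the start that RefSeq gives the gene. Relative to that RefSeq start it begins at -4 in Atp6v0d1, -26 in Clcn6, -53 in Vma21 and -132 in Atp6v1a. The GENCODE M21 models, from which the whole-gene positions given for single genes below are taken, begin further upstream in Atp6v0e, Vma21 and Atp6v1a, so that in these 3 genes the match lies inside the GENCODE gene. It also lies inside the GENCODE gene of Clcn7, which begins at chr17:25133391. Among the 6 genes 5 were positive, with a median log2 fold change of 1.08 and a range from -0.15 (Clcn6) to 2.15 (Clcn7). The 21 genes without a match held 14 positive genes and a median of 0.62, and the difference was not tested. Over the whole table, the 201 genes with the palindrome were 40.3% positive and 38.8% negative, with a median of 0.00.

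The core CACGTG, which lies within the palindrome, was found on either strand in 9 of 27 genes (33.3%), against 8.09% of all genes and 12.1% of those in the table. It added Atp6v0b, Ccdc115 and Clcn4 to the 6 above. The AP-1 sequence TGANTCA was matched in 1 gene, Atp6v0a1 (3.7% of 27, against 8.97% of all genes and 6.07% of those in the table). The NFAT core TGGAAA was matched in 7 (25.9%, against 23.9% of all genes and 19.6% of those in the table), with both strands searched for each. A match to these letters describes the sequence and is not a measured binding site. The Clcn7 window at chr17:25133141-25133440 is given whole, with the same capitals, since it holds a further CACGTG close to the palindrome.
Clcn7: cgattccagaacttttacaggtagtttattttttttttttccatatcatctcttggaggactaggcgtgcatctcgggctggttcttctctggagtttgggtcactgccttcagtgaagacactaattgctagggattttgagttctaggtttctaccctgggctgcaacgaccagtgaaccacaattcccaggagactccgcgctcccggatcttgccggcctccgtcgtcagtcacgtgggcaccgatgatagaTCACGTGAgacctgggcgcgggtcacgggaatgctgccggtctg

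All 9 genes of the V1 sector were positive, against 39.3% of all rows, with a median log2 fold change of 1.30. Atp6v1b2, the nucleotide-binding subunit B of most tissues, was highest at 2.07 (SE at most 0.06, 4.2-fold, adjusted p listed as 0). Atp6v1d, the central shaft that turns inside the catalytic ring, followed at 2.04 (SE at most 0.05, adjusted p listed as 0). The catalytic subunit gene Atp6v1a was at 1.55 (SE at most 0.04, adjusted p listed as 0) and the peripheral stalk gene Atp6v1e1 at 1.37. A narrow group was formed by Atp6v1f, part of the rotor, at 1.30, the stalk gene Atp6v1g1 at 1.27 and Atp6v1c1, which joins the stalks to the membrane sector, at 1.26. Atp6v1g1 shares 19.2% of its 50-mers with other genes and Atp6v1f 11.2%, so the values of these genes are less certain.

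The lowest common V1 gene was Atp6v1h, which takes part in coupling V1 to V0 and in silencing free V1, at 0.74 (SE 0.04, adjusted p = 2.52e-89). Fold changes within this sector therefore ranged from 1.67-fold for Atp6v1h to 4.2-fold for Atp6v1b2. Atp6v1g2, the isoform of subunit G known from neurons, was at 0.86 with a wide 95% interval from 0.27 to 1.45 (adjusted p = 0.006), and its mean level lay at the 6th percentile. The 8 other V1 genes lay between the 80.9 and 97.9 percentiles.

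**Figure D2:**
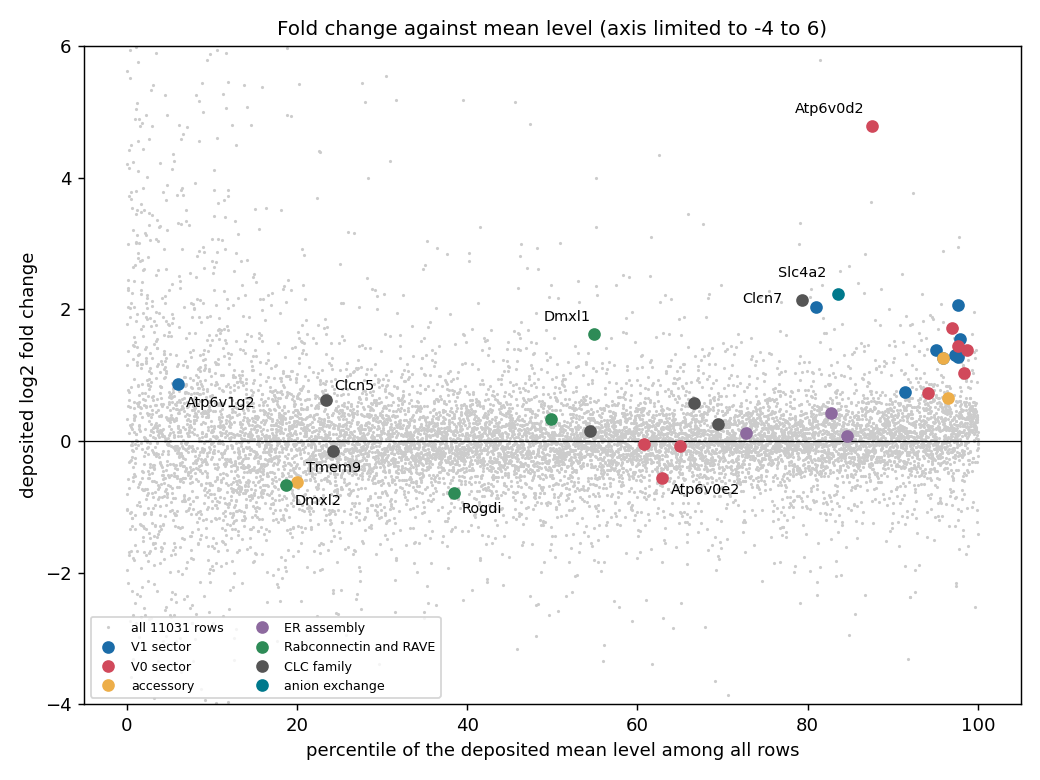
Deposited log2 fold change against the percentile of the deposited mean level, for all 11031 rows (grey) and 35 of the 36 genes (coloured by role). Rows beyond -4 and 6 are not drawn. Of the 18 V1 and V0 genes, 12 sit above the 90th percentile, with values of 0.72 to 2.07, while the 3 lowest genes, Rogdi, Dmxl2 and Tmem9, sit below the 40th percentile.

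In the membrane sector 6 of 9 genes were positive, 1 was negative and 2 did not pass. The shares over all rows were 39.3% positive and 38.1% negative, and 77.5% passed. Atp6v0d2, the subunit d isoform that is characteristic of osteoclasts, had the highest value of all 36 genes, 4.78 (SE at most 0.13, 27.5-fold, adjusted p listed as 0). It lies on the minus strand at chr4:19876841-19922605 (GRCm38), and its level was at the 87.5 percentile. Tcirg1, which encodes the a3 isoform of the proton channel subunit and sends the pump to the plasma membrane of osteoclasts, was at 1.72 (SE at most 0.05, 3.29-fold, adjusted p listed as 0). Its gene is on the minus strand at chr19:3896050-3907133.

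The proteolipid ring that carries protons past subunit a is built from the products of Atp6v0c and Atp6v0b. Atp6v0c was at 1.38 and Atp6v0b at 1.03 (SE 0.03, adjusted p = 4.82e-262). Both were among the most abundant genes of the set by mean level per length, at the 98.7 and 98.4 percentiles. Atp6v0e, a small membrane subunit, was at 1.44. Atp6v0c shares 10.8% of its 50-mers with 2 processed copies, and 8.59% of the Atp6v0b 50-mers occur in an antisense gene, so these values are less certain.

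Where the V0 sector has alternative isoforms, 1 of them stood well above the rest. For subunit d, the ubiquitous Atp6v0d1 was at 0.72 (95% interval 0.66 to 0.78), a difference of 4.06 from Atp6v0d2 on the log2 scale. In subunit a, Atp6v0a1 was at -0.07 (interval -0.15 to 0.01, adjusted p = 0.12) and Atp6v0a2 at -0.04 (interval -0.11 to 0.03, adjusted p = 0.30). Neither passed the threshold, and both intervals exclude a difference of the size seen for Tcirg1. The isoforms a1 and a2 are known from nerve endings and from the Golgi apparatus and endosomes. For subunit e, Atp6v0e2 was negative at -0.56 (SE 0.06, adjusted p = 2.33e-23), and 2.00 below Atp6v0e.

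These gaps between isoforms were not tested, because the test needs the values per library. The intervals of Tcirg1, Atp6v0d2 and Atp6v0e did not overlap those of their alternative isoforms. Those of Atp6v0a1 and Atp6v0a2 overlapped, as did those of Atp6v1g1 (1.20 to 1.33) and Atp6v1g2. A further 12 genes of the GENCODE M21 annotation have symbols that meet the rule but no row in the table, among them the kidney isoform genes Atp6v0a4 and Atp6v1b1, and Atp6v1c2, Atp6v1e2 and Atp6v1g3. The filter that left the listed rows was not given, so nothing is said of their expression.

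**Figure D3:**
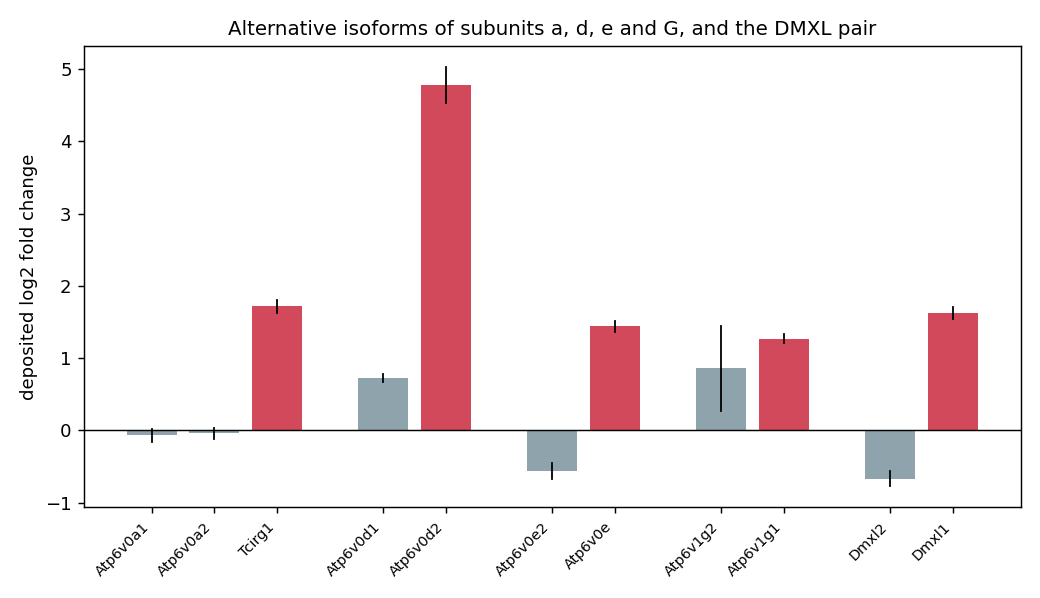
Deposited log2 fold change of alternative isoforms of subunits a, d, e and G and of the DMXL pair. Black lines are 95% intervals from the implied standard error, and red bars mark the higher isoform. Tcirg1, Atp6v0d2, Atp6v0e and Dmxl1 stand 1.76 to 4.06 above their partners, while the intervals of the subunit G pair overlap.

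The accessory proteins differed among themselves. Atp6ap2, the (pro)renin receptor, which is bound to the membrane sector and needed for its assembly, was at 1.27 (SE at most 0.03, 2.41-fold, adjusted p listed as 0). Atp6ap1, known as Ac45, which guides the pump to the ruffled border, was at 0.65 (SE 0.02, adjusted p = 2.77e-156). Tmem9, a lysosomal membrane protein reported to bind accessory subunits of the pump, was negative at -0.62 (SE 0.12, adjusted p = 5.95e-07) and weakly expressed, at the 20.1 percentile.

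Factors that assemble the membrane sector in the endoplasmic reticulum had values below the median of 1.03 for the 9 V0 genes. All 3 lay above Atp6v0a1, Atp6v0a2 and Atp6v0e2. Tmem199 was at 0.43 (SE 0.04, adjusted p = 2.92e-22) and Vma21 at 0.12 (SE 0.04, adjusted p = 0.009). Ccdc115 was at 0.07 (interval 0.00 to 0.15, adjusted p = 0.066) and did not pass. Of its 50-mers, 15.5% occur in other genes. The highest of the 3 values is 1.35-fold, and their mean levels lay between the 72.8 and 84.6 percentiles.

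The rabconnectin proteins, the mammalian counterpart of the yeast RAVE complex, join V1 to V0 on the membrane. Their genes went in opposite directions. Dmxl1 was at 1.63 (SE at most 0.04, 3.09-fold, adjusted p listed as 0), and its paralogue Dmxl2 at -0.67 (SE 0.05, adjusted p = 7.8e-35). Wdr7, which binds the DMXL proteins, was at 0.34 (SE 0.04) and Rogdi at -0.80 (SE 0.10, adjusted p = 1.92e-15), the lowest value of the 36 genes. By mean level Dmxl1 ranked at the 54.9 percentile and Dmxl2 at the 18.7 percentile. An antisense gene overlaps 10.2% of the Rogdi exon bases.

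Within the CLC family the shift was concentrated in Clcn7. The exchanger gene of the lysosome and ruffled border was at 2.15 (SE at most 0.06, 4.43-fold, adjusted p listed as 0), on the plus strand at chr17:25133391-25162104. Ostm1, the subunit without which ClC-7 is unstable, was at 0.58 (SE 0.04, 1.5-fold, adjusted p = 2.41e-43). The endosomal exchangers Clcn3 and Clcn4 were at 0.25 (SE 0.04) and 0.15 (SE 0.04). Clcn6, an exchanger of late endosomes, lay just inside the threshold at -0.15 (adjusted p = 0.046), and it no longer passed at an adjusted p under 0.01.

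Clcn5, an endosomal exchanger gene known from the kidney tubule, was at 0.62 and did not pass (adjusted p = 0.42). Its interval, -0.75 to 1.99, is too wide to place it on either side. The implied SE of 0.70 was larger than that of 99.6% of the rows in the same decile of mean level, where the median was 0.08.

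Slc4a2 encodes the exchanger that trades cytosolic bicarbonate for chloride on the membrane that faces away from bone. It had the second highest value of the set, 2.23 (SE at most 0.06, 4.71-fold, adjusted p listed as 0), at chr5:24423837-24440950 on the plus strand. Its exons overlap those of Fastk on the opposite strand over 13.7% of their bases. The libraries were strand-specific per the labels, but whether reads were counted by strand was not given.

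The rule did not use the KEGG and GO annotation in the table. That annotation describes the same genes, so their overlap is not independent support. Of 19 rows assigned to the KEGG pathway of collecting duct acid secretion, 17 were members, and all 13 rows with the GO term for synaptic vesicle lumen acidification were members. Members were 17 of 22 rows for vacuolar acidification, 18 of 45 for the synaptic vesicle cycle and 17 of 188 for the lysosomal membrane. Among 102 other rows of the lysosome pathway, 44 were positive and 43 negative, with a median of 0.04, shares near those of all rows (39.3% positive and 38.1% negative), against 7 positive of 9 members there and a median of 0.74. The 102 other phagosome rows held 27 positive and 62 negative genes, with a median of -0.42, while 16 of 19 members in that pathway were positive, with a median of 1.27. These counts are descriptions, and the difference between members and other rows was not tested.

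Genes that act with the pump but lie outside the set were examined as lists of known partners. Counts in these lists stand beside 39.3% positive and 38.1% negative over all rows. Of 13 listed partners of the V-ATPase in the table, 9 were positive and 4 negative, with a median of 0.43. The highest past the threshold were Rilp (1.54), an effector of Rab7 on lysosomes, and Aldoa (1.37), a glycolytic enzyme that binds the pump. Snx10, a sorting nexin required for osteoclast resorption, was at 1.32. The lowest were Rab3d (-0.78), a secretory vesicle GTPase, and Dync1h1 (-0.47), the dynein heavy chain. Of 16 acid, bicarbonate and ion transport genes, 7 were positive, 4 negative and 5 did not pass, with a median of 0.11. Slc9b2, a sodium/proton exchanger of osteoclasts, was at 12.51 with an implied SE of 1.37, and carbonic anhydrase Car2, which supplies the protons, at 3.63. The lowest of that list were the lysosomal cation channel Mcoln2 (-0.68) and Pip4p1 (-0.45).

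Of 11 known regulators of pump genes, 6 were positive and 5 negative (39.3% and 38.1% over all rows), with a median of 0.12. Myc (4.81) and Nfatc1 (2.58), the master factor of osteoclast formation, were highest, and the AP-1 genes Jun (-1.02) and Fos (-0.87) were lowest. The MiT/TFE family, which is known to bind E-boxes of this kind, had small or negative values, 0.12 for Mitf, -0.09 for Tfe3, -0.62 for Tfeb and -0.84 for Tfec.

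**Figure D4:**
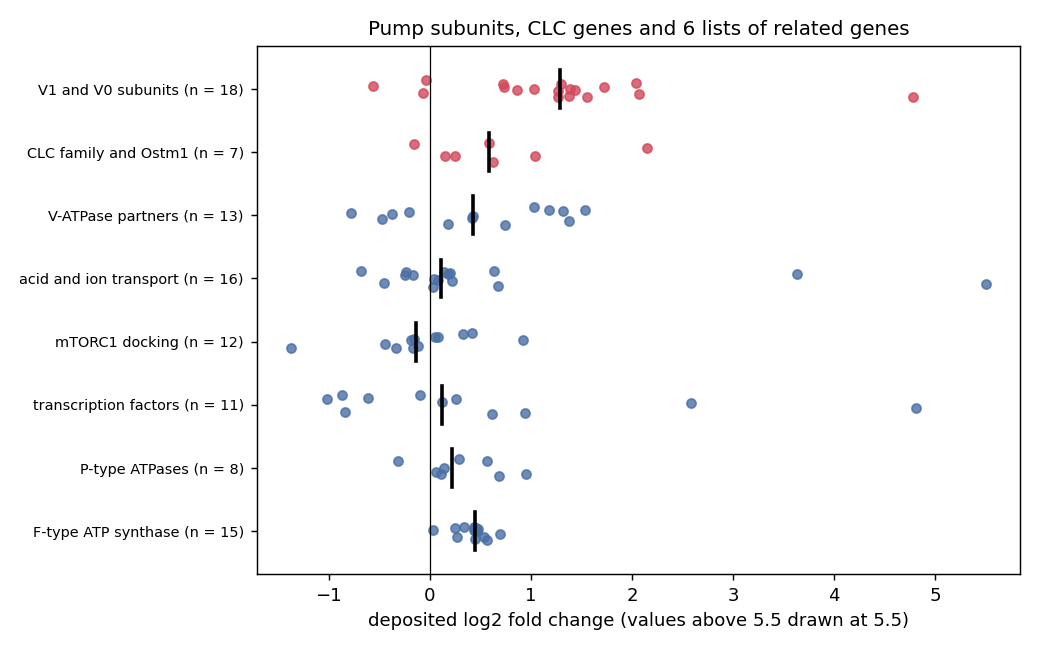
Deposited log2 fold changes of V1 and V0 genes and of the CLC family with Ostm1 (red), and of 6 lists of related genes (blue). Each point is a gene, black bars are medians, and n is the number of genes with a row. Slc9b2 at 12.51 is drawn near the right edge, short of its true value. The median of the 18 pump subunits, 1.28, is above that of every other group drawn.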

How the data were processed

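RNA sequencing of 3 Ctrl and 3 RANKL samples of RAW264.7 cells was analysed from 1 deposited table of 11031 rows. The authors compared the 2 conditions with DESeq2 per the study's methods, and the submitters' notes name DESeq and build mm10. For the aligner, read counter, annotation release and row filter, the setting was not given in the sources used here. Both the deposited log2 fold change and the deposited p-value, raw and adjusted, were used as they stand. The columns are the authors' own comparison, and no other value could be assigned to a group. The deposited mean level, a logarithm of FPKM taken as log2, served only to rank rows. Another 12 columns hold values of single libraries under names found in no label and were not used, so depth per sample is unknown here.

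Recomputing the Benjamini-Hochberg adjustment over the table gave a different value in 0 rows (relative tolerance 1e-06). Standard errors were derived from fold change and p-value as for a Wald test (Python 3.11.15, SciPy 1.17.1), and intervals are at the 95% level. This step, the adjustment and the removal of the GC and length trend were tested on simulated data, and the other alternatives were not. Shared 50-mers and exon overlaps were computed from GENCODE M21 (GRCm38), in which all 36 identifiers matched, and promoter windows are from RefSeq. Of the members, 35 were named, and the values of 1 member and of 1 gene in the lists are not reported here, although both stay in the counts and medians. The 8 highest and 4 lowest fold changes and 6 fixed genes were to be given with their p-value, together with the 2 highest and the 2 lowest genes past the threshold in every list. For the lists of F-type and P-type pumps this was not followed in full, and Atp5pf, named as the lowest F-type value, did not pass. Members and lists were chosen with earlier results of these data known. Snx10, the rows of the MiT/TFE family and the other genes named in the closing section beyond that rule were singled out after their values were seen.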

Additional observations from a re-analysis of the deposited data

How the results depend on the processing

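The counts of 27 positive and 5 negative genes stayed within 1.5 times under an adjusted p under 0.01, Benjamini-Yekutieli adjustment, centring on the median of all rows, subtraction of a fitted GC and length trend, and omission of the 5 genes that share over 10% of their 50-mers or of the 12 whose exons overlap another gene. The overlap alternative, and the counts after trend removal, were chosen after seeing the data. When a 2-fold difference was also required, the counts were 17 positive and 0 negative, and among rows at or above the median level, adjusted alone, 1 was negative, since 4 of the 5 negative genes lie below that level. Removal of the GC and length trend shifted single genes by up to 0.16 (Rogdi) and turned Atp6v0a2, which did not pass the threshold, from -0.0412 to 0.0112. Neither centring nor trend removal changed the direction or call of the other 35 genes. No paired analysis was possible because the columns per library carry no name that matches a sample label, and for the same reason leaving out replicates, edgeR, DESeq2 size factors and a count filter were not run. The calls rest on the deposited test, and the spread between replicates behind them could not be examined.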

Other observations

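Pumps of other classes had lower medians than the 1.28 of the 18 V-ATPase subunits, a difference that was not tested. Over all rows, 39.3% were positive and 38.1% negative. Of 15 subunit genes of the mitochondrial F-type ATP synthase, the rotary relative of the V-ATPase, 14 were positive and 1 did not pass, with a median log2 fold change of 0.45 and a range from 0.04 (Atp5pf) to 0.69 (Atp5mc1). Among 8 P-type cation pumps, 6 were positive and 1 negative, with a median of 0.21. The calcium pump gene Atp2a3 was at 0.69, while the copper pump gene Atp7a was at -0.32. In the deposited KEGG annotation, 98 other rows of oxidative phosphorylation held 81 positive and 5 negative genes, with a median of 0.37, against 1.27 for the 19 V-ATPase rows of that pathway.

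Of 12 listed genes whose products dock mTORC1 to the V-ATPase on the lysosome, 7 were negative, 3 positive and 2 did not pass, with a median of -0.14, while 38.1% of all rows were negative and 39.3% positive. Of the 7, Lamtor2, Lamtor3, Lamtor5 and Fnip2 had small values, from -0.12 to -0.19. Rragb was at -1.37 and the Ragulator subunit gene Lamtor4 at -0.44, whereas the Rag regulators Flcn and Fnip1 were at 0.92 and 0.41. The 9 genes of the pump that the table assigns to the mTOR pathway were all positive, with a median of 1.30, and the 98 other rows of that pathway held 37 positive and 43 negative genes.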
